A study of Mus musculus with 4 samples.

Results

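Cycling CD8 T cells are the killer T cells of the tumor that were caught in the act of dividing. They were taken from single cell RNA sequencing of CD45+ leukocytes from EO771 mammary tumors, where EO771 is a mammary tumor cell line of C57BL/6 mice. A cell was counted as a member when its raw counts held at least 1 UMI (unique molecular identifier, 1 captured RNA molecule) of Mki67 and at least 1 of Top2a, at least 2 UMIs of Cd8a and Cd8b1 together, at least 2 of Cd3d, Cd3e and Cd3g together and 0 of Foxp3, with S100a8 and S100a9 below 300 and C1qa, C1qb and C1qc below 20 per 10000 UMIs of the cell. In all, 931 of the 28429 cells that the authors kept were members. Members were thus chosen by their own raw counts, so the genes of this gate are described here without a test.

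The tumors were grown in the mammary fat pad of female mice and taken at a volume of 1.5 cm3. A pair of mice were Csf1rfl/fl, with the gene of the CSF-1 receptor flanked by loxP sites and no Cre, and the other pair were Lyve1CreCsf1rfl/fl, in which Cre driven from Lyve1 removes the floxed gene in cells that have expressed Lyve1. Lyve1 is also expressed by lymphatic endothelium, so the deletion is not limited to macrophages, and no agent was given to either genotype. Each of 2 Chromium runs pooled 1 tumor of each genotype, so a run holds both genotypes and the replicate is the tumor, with 2 tumors per genotype. Values for the 4 tumors are given throughout in the order Csf1rfl/fl of run 1, Csf1rfl/fl of run 2, Lyve1CreCsf1rfl/fl of run 1 and Lyve1CreCsf1rfl/fl of run 2. A cell was assigned to the tumor whose hashtag antibody had the higher count in that cell. The 2 hashtag barcodes were used in the opposite order in the 2 runs, and they are shown because every genotype comparison rests on them.
Csf1rfl/fl of run 1 and Lyve1CreCsf1rfl/fl of run 2: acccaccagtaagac
Lyve1CreCsf1rfl/fl of run 1 and Csf1rfl/fl of run 2: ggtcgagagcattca

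When a CD8 T cell meets its antigen with costimulation it grows, passes through DNA synthesis (S phase) and mitosis (G2/M), and its daughters acquire granules of perforin and granzymes and the capacity to secrete interferon gamma. In tumors, long antigen exposure also brings the inhibitory receptors PD-1, LAG-3 and TIM-3. A smaller TCF-1 expressing pool is thought to feed the effector cells. S phase genes are driven mainly by E2F factors, whereas the G2/M genes are released late in the cycle through CCAAT boxes and the cell cycle homology region (CHR), an element bound by the DREAM and MuvB complexes.

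The promoters of both cycling genes of the gate hold the G2/M elements. That of Isg15 is shown because interferon-stimulated genes were a lower share of UMIs in the dividing cells. Each sequence is the 250 bases before the RefSeq start on GRCm38.p6, written from 5′ to 3′ on the strand of the gene. For Mki67 (minus strand, chr7:135716380-135716629) and Top2a (minus strand, chr11:99024190-99024439), capitals mark TTTGAA, the CHR core, and CCAAT, on either strand. For Isg15 (minus strand, chr4:156200819-156201068) they mark the core of the interferon-stimulated response element, GAAA and again GAAA after 2 bases of any kind, of which 3 copies overlap.
Mki67: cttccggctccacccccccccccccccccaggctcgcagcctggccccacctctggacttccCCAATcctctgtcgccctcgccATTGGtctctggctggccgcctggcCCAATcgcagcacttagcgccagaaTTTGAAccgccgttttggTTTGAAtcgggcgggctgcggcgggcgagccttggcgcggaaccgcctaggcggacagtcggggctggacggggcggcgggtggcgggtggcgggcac
Top2a: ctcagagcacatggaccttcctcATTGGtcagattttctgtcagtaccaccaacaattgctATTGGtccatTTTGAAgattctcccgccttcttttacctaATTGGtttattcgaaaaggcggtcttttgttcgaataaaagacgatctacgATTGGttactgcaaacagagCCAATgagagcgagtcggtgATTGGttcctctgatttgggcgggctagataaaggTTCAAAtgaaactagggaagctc
Isg15: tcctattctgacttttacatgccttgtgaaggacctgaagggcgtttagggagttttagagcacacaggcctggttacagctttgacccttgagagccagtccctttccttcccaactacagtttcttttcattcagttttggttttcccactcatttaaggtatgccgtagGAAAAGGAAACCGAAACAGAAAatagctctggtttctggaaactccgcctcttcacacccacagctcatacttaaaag
Searched over windows from 250 bases before to 50 after the start, on both strands, TTTGAA stood in 31 of the 47 G2/M promoters that matched a RefSeq entry (66.0%), in 5 of the 33 S phase promoters (15.2%) and in 18.1% of all 27025 promoters. CCAAT stood in 76.6% of G2/M, 66.7% of S phase and 37.9% of all promoters, and GGCGGGAA, an E2F site, in 18.2% of S phase promoters, in 0 of 47 G2/M promoters and in 2.24% of all. The interferon element core stood in 13 of 22 promoters of interferon-stimulated genes (59.1%) and in 3.49% of all. These are matches of letters only, not measured binding.

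The 4 tumors contributed 8613, 7786, 7248 and 4771 kept cells, 53.3% of the 53361 deposited barcodes, and 60 barcode sequences of kept cells occurred in both runs. The runs stood apart in doublet calls: Scrublet, which simulates doublets from pairs of cells, called 28.1% and 19.7% of the kept cells of run 1 and 3.25% and 6.08% of those of run 2. Scrublet set its cutoff within each run, on 26153 and 27208 barcodes, so the cutoffs could differ. The shares called are therefore not measured doublet rates. Among members the shares were 41.1%, 3.18%, 24.8% and 7.51%, or 202 of 931 cells, so several results below are also given without these cells. Csf1r, the floxed gene, was at 0.434, 0.161, 0.159 and 0.126 UMIs per 10000 in members, where T cells do not use it. The deletion therefore cannot be checked in these cells, and Lyve1 had 1 UMI in all of them. A level summed over a class does not by itself separate fewer cells with a UMI from fewer UMIs per cell, so the share of depth-matched cells with a UMI is given for some genes.

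Members had many UMIs per cell and carried the markers of dividing CD8 T cells. A deeper cell is likelier to show both cycling genes and a shallower one to show neither, so the depths are not free of the gate. The tumors held 341, 220, 157 and 213 members, with median depths of 9677, 9466, 7960 and 9749 UMIs per cell. They were compared with 1613 non-cycling CD8 T cells (same gate, Mki67 and Top2a at 0), with a median of 4391 UMIs, and with 459 cycling regulatory T cells (Foxp3 at 1 UMI or more, Cd8a and Cd8b1 at 0, same cycling gate), with a median of 8642. A further 681 CD8 T cells held only Mki67 or only Top2a and were left out of both classes.

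Stmn1, which encodes the microtubule regulator stathmin and was not used by the gate, was at 9.13, 6.6, 10.1 and 6.56 UMIs per 10000 in members and at 0.646, 0.541, 0.666 and 0.432 in non-cycling CD8 T cells, with no overlap. Trac, the constant region of the T cell receptor alpha chain, was at 4.54, 4.53, 5.55 and 4.6, and Cd4 at 0.0756, 0.0236, 0.0216 and 0.0855, against 0.94, 1.23, 1.07 and 1.21 in cycling regulatory T cells. Stmn1, Trac and the low Cd4 were those of dividing CD8 T cells in all 4 tumors. Members held a median of 5 UMIs of Mki67 (1 to 41), which encodes the proliferation antigen Ki-67 (chr7:135689784-135716361, GENCODE vM21 on mm10), and of 6 of Top2a (1 to 74), the topoisomerase that untangles replicated DNA (chr11:98992943-99024189). Cd8a, the alpha chain of the CD8 coreceptor (chr6:71373427-71379173), and Cd8b1 each had a median of 4.

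The 55 members with exactly 1 UMI of each cycling gene had Stmn1 at 3.22 UMIs per 10000, against 1.13 in the 194 cells just outside with 1 UMI of Mki67 and none of Top2a and 1.43 in the 286 with the reverse. Exactly 2 CD8 UMIs were held by 48 members, and 49 cells fell just outside with 1. Just outside the other limits were 29 cells with 1 UMI of Foxp3 and 16 with S100a8 and S100a9 at 300 to 600 per 10000 (16 members lay at 150 to 300). A further 33 had C1q at 20 to 40 (21 members lay at 10 to 20). Scrublet called 93.75% of those 16 members and 81.0% of those 21 members doublets, against 21.7% of all members.

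Members made up 3.96%, 2.83%, 2.17% and 4.46% of the kept cells. The kept cells of the Lyve1CreCsf1rfl/fl tumor of run 2, the fewest at 4771, are what was left after the authors removed 4 clusters that came almost only from that tumor, so the removal fell mainly on its denominator, and the part of that removal in the share was not tested. The Lyve1CreCsf1rfl/fl tumor had the lower share in run 1 (a ratio of 0.547) and the higher share in run 2 (1.58), so the direction differed between runs, and the exact binomial 95% intervals, which cover counting error only, did not overlap within a run. The means were 3.39% ± 0.80 (SD, n = 2) in Csf1rfl/fl and 3.32% ± 1.63 in Lyve1CreCsf1rfl/fl (exact permutation test on log2 shares, two-sided p = 1). Among all 3225 CD8 T cells, 25.5%, 37.4%, 25.2% and 31.4% were cycling, with ratios of 0.988 and 0.840 in runs 1 and 2 (exact permutation p = 0.667). The paper identified the removed clusters as lymphocytes, so their removal may also have lowered the count of non-cycling CD8 T cells in that run 2 tumor. The part of the removal in its 31.4% was not tested. With 2 tumors against 2 the smallest two-sided p is 0.333. All CD8 T cells were 15.5%, 7.56%, 8.58% and 14.2% of kept cells, so the 2 tumors with the higher shares of members were also the 2 with more CD8 T cells of any kind. Because a deeper cell is likelier to show both cycling genes, the gate was repeated after thinning each cell to 2000 UMIs, and then 10.9%, 20.1%, 13.4% and 19.9% of CD8 T cells were cycling, with the mean now higher in Lyve1CreCsf1rfl/fl. Without the Scrublet doublets the shares were 22.1%, 37.6%, 23.3% and 31.5%.

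**Figure D1:**
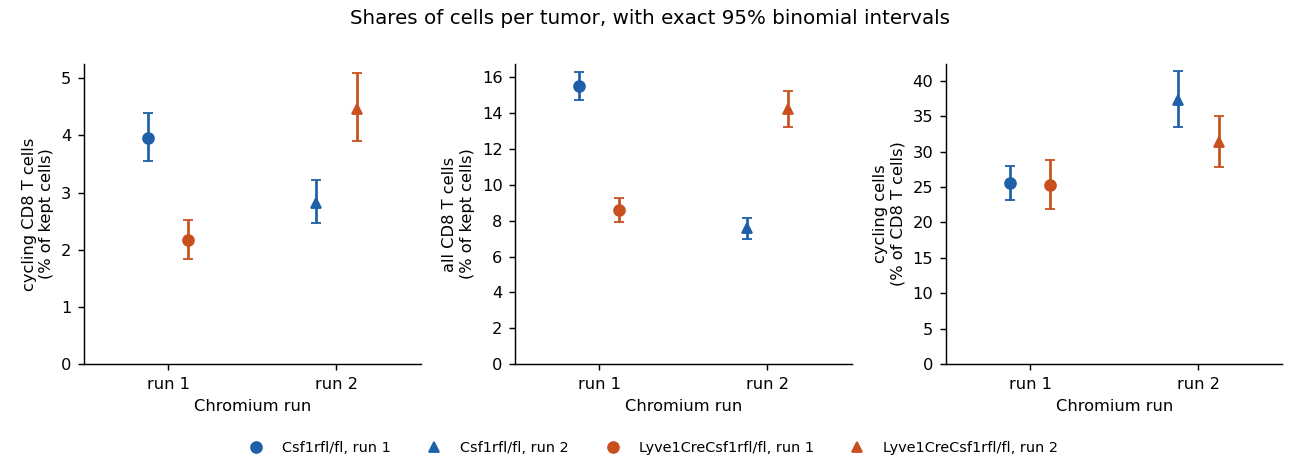
Percent of cells per tumor, with exact 95% binomial intervals as bars. From left to right: cycling CD8 T cells among kept cells, all CD8 T cells among kept cells, and cycling cells among CD8 T cells. The share among kept cells is 3.96% and 2.17% in the Csf1rfl/fl and Lyve1CreCsf1rfl/fl tumors of run 1 and 2.83% and 4.46% in those of run 2, so the 2 runs point in opposite directions.

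Next, the members were set against the non-cycling CD8 T cells of the same tumors. Dividing cells carried more RNA of the cell cycle, nucleotide synthesis and parts of glycolysis and respiration, while RNA of memory genes, interferon-stimulated genes, Ccl5 and immediate early genes was lower. For the killing genes Prf1 and Ifng and the checkpoint gene Pdcd1 no difference was detected. UMIs were summed per tumor and class and tested with edgeR's quasi-likelihood test with the tumor as a block. At an adjusted p (Benjamini-Hochberg) under 0.05, 3180 of 9624 genes differed, or 33.0% of those tested (17.5% higher and 15.5% lower in members). Counts of list members below are to be read against these shares, and list medians against a median over all genes of -0.04 (log2). Without the block 1609 genes passed, and the DESeq2 Wald test called 1733. Levels are UMIs per 10000 of the class in a tumor, and differences are log2 fold changes ± SE.

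The cell cycle lists follow from the gate and are described without a test. All 45 S phase genes and all 54 G2/M genes measured were higher in members, with median differences of 1.86 (0.40 to 5.49) and 4.34 (0.59 to 9.43, where Kif2c, at 0 in non-cycling cells and at least 109-fold higher, has a fitted value that is no bound). Cdk1, the mitotic kinase, was at 1.3, 1.44, 1.28 and 1.43 in members and 0.0248, 0.0619, 0.0732 and 0.0316 in non-cycling cells, and Hmgb2, a chromatin protein of dividing cells, at 29.8, 37.7, 35.2 and 34.9 and 4.45, 4.52, 4.69 and 5.25. Ccnb1, which encodes cyclin B1, was at 0.449, 0.815, 0.562 and 0.741, highest in the tumors of run 2. Pcna, the sliding clamp of DNA polymerase, was at 3.15, 3.62, 3.97 and 4.27 against 1.12, 1.35, 1.41 and 1.34. For these genes the lowest member level lay above the highest non-cycling level.

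To compare the phases at 1 depth, cells were thinned to 3000 UMIs, which left 913 members and 1235 of the 1613 non-cycling CD8 T cells. Thinning also left 442 of the 459 cycling regulatory T cells and 1645 of 5063 cells of a neutrophil gate. All shares thinned to this depth cover only these deeper cells. The median of members was 13 UMIs over the S phase list and 31 over the G2/M list, against 3 and 4 in non-cycling cells. The G2/M sum was the larger in 78.5%, 77.6%, 71.2% and 77.7% of members per tumor. Both genes of the gate are most abundant late in the cycle, so this share is a description of cells chosen for such genes. The G2/M sum was also the larger in 56.7% of non-cycling CD8 T cells thinned alike. In cells of a neutrophil gate it was the larger in 84.4%, and in those of a macrophage gate in 73.2%. The share by itself therefore does not mark a late phase.

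Among the cyclins, kinases and inhibitors, 25 genes with a median difference of 1.23, the D cyclins Ccnd1, Ccnd2 and Ccnd3, which act in G1, and the inhibitors Cdkn1a (p21) and Cdkn1b (p27) were lower in members. Cdkn1a, which is also on the p53 list, passed with an adjusted p of 0.0288 that was lost in 5 of 11 alternatives (up to 0.177), among them leaving out the Csf1rfl/fl tumor of run 2 or either Lyve1CreCsf1rfl/fl tumor. Ccnd2 was at 1.23, 1.71, 1.35 and 2.04 in members and 1.65, 3.81, 2.49 and 4.23 in non-cycling cells. Its level was lower in members in each tumor, although the classes overlapped across tumors. Ccne1, which encodes the cyclin E1 of S phase entry, was higher, at 0.234, 0.338, 0.382 and 0.342 against 0.0842, 0.101, 0.0998 and 0.0948. By the rule for genes outside the cell cycle lists, the 12 largest rises included 4 histone genes, the kinesins Kif4 and Kif14, the cohesin acetyltransferase Esco2, the mitotic kinase Pbk and Neil3. Such genes of division are not independent of the gate either, although they are on none of these lists. Eme1, a subunit of a nuclease that resolves recombination intermediates, had 107 UMIs in members and 0 in non-cycling cells (at least 29.7-fold higher, with a floor of 3 counts over the class). Neil3, a DNA glycosylase, had 377 against 1 (ratio 314, counting interval 56.0 to 12438). Histone genes are near-identical copies whose reads the counting can split or drop, so their single values are uncertain.

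All 18 genes of nucleotide and one-carbon metabolism rose (median 0.87), and 14 of 18 passed without the block. Impdh2, the limiting enzyme of guanine nucleotide synthesis, was at 0.886, 1.28, 0.966 and 1.32 in members and 0.357, 0.541, 0.486 and 0.595 in non-cycling cells (1.18 ± 0.10, adjusted p = 1.75e-06), and Mthfd2, a mitochondrial folate enzyme, rose by 0.86 ± 0.11, adjusted p = 5.63e-05. Nme1, a nucleoside diphosphate kinase, was at 3.61, 3.45, 3.68 and 3.77 against 2.64, 2.17, 2.94 and 1.93 (0.59 ± 0.10, adjusted p = 0.000754). Every tumor of the members lay above every tumor of the non-cycling cells for both Impdh2 and Nme1. Of 16 glycolysis genes 5 rose and none fell: Ldha, lactate dehydrogenase A, at 5.57, 7.32, 6.69 and 7.18 against 4.46, 4.68, 4.98 and 4.37 (0.52 ± 0.08, adjusted p = 0.000423), and Gapdh, Pgk1, Tpi1 and Pgam1. The calls of Tpi1 and Pgam1 were lost on leaving out the Csf1rfl/fl or the Lyve1CreCsf1rfl/fl tumor of run 2, that of Pgam1 also without the Lyve1CreCsf1rfl/fl tumor of run 1, and 2 glycolysis genes passed without the block. Of 27 nuclear genes of the respiratory chain 18 rose and 1, Uqcrh, fell, with a small median of 0.26. That count was 1 without the block and 10 to 21 on leaving out single tumors.

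**Figure D2:**
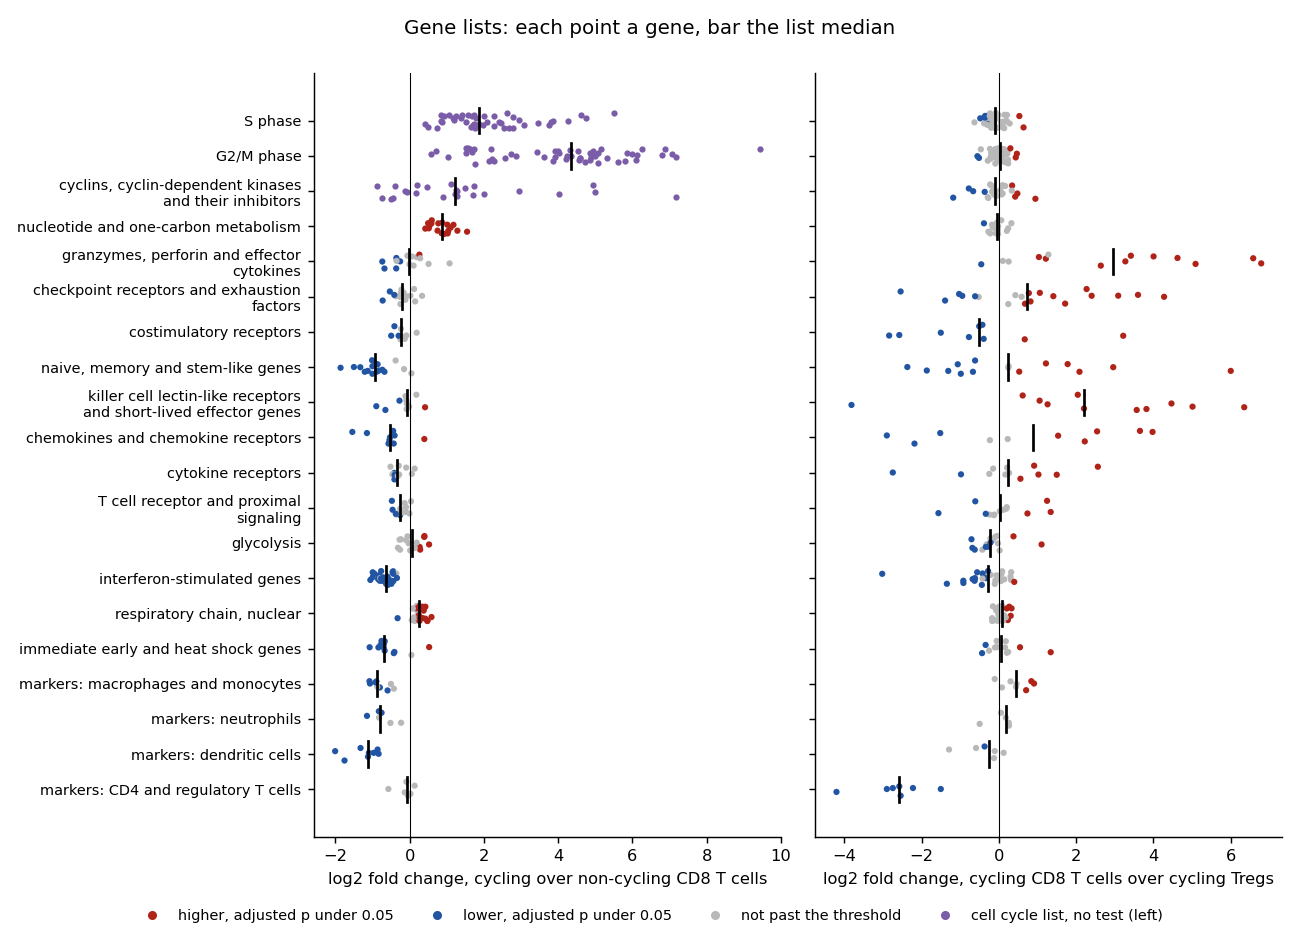
Log2 fold change of each list gene, 1 point per gene and a bar at the list median, in members against non-cycling CD8 T cells (left) and against cycling regulatory T cells (right). Colors give the direction of genes past the adjusted p threshold, and purple marks cell cycle lists, which were not tested on the left. In the left panel all S phase and G2/M genes lie right of 0 and most interferon-stimulated and memory genes left of it, in the right panel most effector and lectin-like receptor genes lie right, with Srgn and Klrg1 called on the left, and genes at 0 in the other class, such as Kif2c, are drawn at a fitted value that is no bound.

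Dividing and non-cycling CD8 T cells both carried the RNA of killing. Perforin, encoded by Prf1, which opens the target membrane, was at 3.13, 3.45, 3.51 and 3.96 in members and 4.24, 4.05, 3.59 and 2.81 in non-cycling cells (-0.06 ± 0.12, adjusted p = 0.742). Ifng, which encodes interferon gamma, was at 2.92, 2.36, 3.08 and 2.2 and 3.42, 2.49, 2.28 and 2.35 (-0.01 ± 0.10, adjusted p = 0.974). Both classes overlapped for both genes, and without the Scrublet doublets the differences were -0.11 for Prf1 and -0.08 for Ifng. Gzmb, which encodes granzyme B, the protease that starts death of the target cell (chr14:56258838-56262260), was at 6.67, 5.86, 4.57 and 7.38 in members and 5.56, 5.64, 4.24 and 4.82 in non-cycling cells. It was higher in members in each tumor (0.26 ± 0.09, adjusted p = 0.0387), but the tumors of the classes overlapped. The call of Gzmb was lost in 7 of 11 alternatives, with adjusted p up to 0.386 without the Scrublet doublets, and on leaving out the Csf1rfl/fl tumor of run 2 or either Lyve1CreCsf1rfl/fl tumor.

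Of the 15 granzyme, perforin and effector cytokine genes tested, Gzmb alone rose and 5 fell, with a median of -0.01, and without the block none passed. Tnf, which encodes tumor necrosis factor, was at 0.529, 0.236, 0.245 and 0.196 against 0.53, 0.51, 0.579 and 0.421 (-0.74 ± 0.19, adjusted p = 0.0111), Nkg7 (-0.26 ± 0.08) and Ctsw (-0.36 ± 0.08) are granule proteins, Srgn (-0.36 ± 0.08) is the granule proteoglycan and Lamp1 (-0.68 ± 0.15) a lysosomal membrane protein. The call of Tnf was lost without the Csf1rfl/fl tumor of run 2 or either Lyve1CreCsf1rfl/fl tumor, and that of Nkg7 without either Csf1rfl/fl tumor or the Lyve1CreCsf1rfl/fl tumor of run 1. Thinned to 3000 UMIs, 49.3% of members and 47.2% of non-cycling cells held Gzmb, against 4.5% of cells of a neutrophil gate. Per tumor the Gzmb shares were 52.5%, 51.4%, 34.6% and 52.6% in members and 55.5%, 48.9%, 39.3% and 34.9% in non-cycling cells. Members were thus lower by this share in the tumors of run 1 and higher in those of run 2. Pooled over tumors, Prf1 was in 51.0% and 48.2%. Before thinning Gzmb was in 65.2% and 54.7%.

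**Figure D3:**
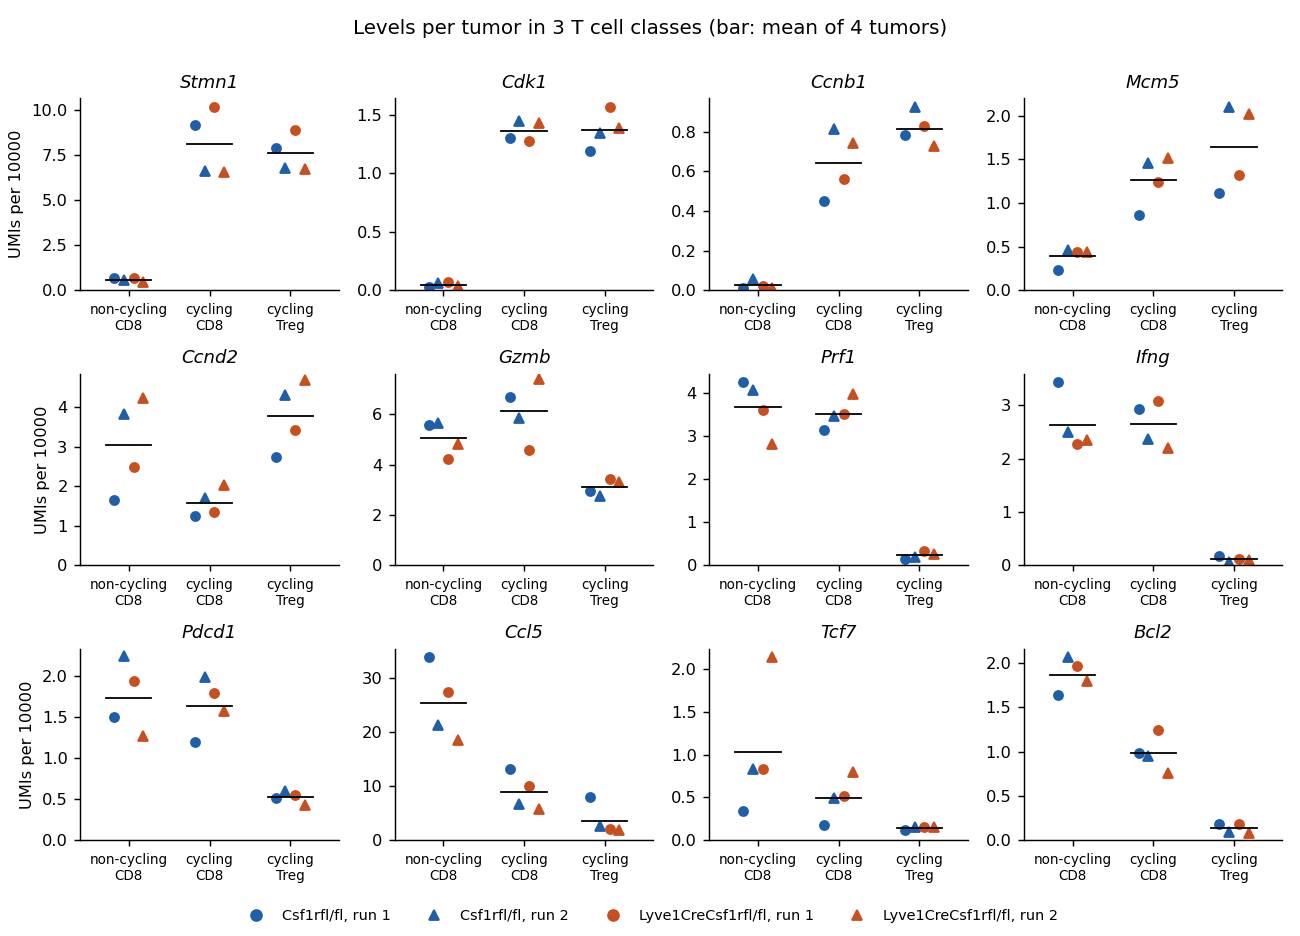
UMIs per 10000 of 12 genes in cycling CD8 T cells, non-cycling CD8 T cells and cycling regulatory T cells, with 1 point per tumor and a bar at the mean of the 4 tumors. Stmn1, Cdk1, Ccnb1 and Mcm5 are high in both cycling classes, Gzmb, Prf1, Ifng and Pdcd1 are high in both CD8 classes, and Ccl5, Tcf7 and Bcl2 are lower in cycling than in non-cycling CD8 T cells.

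None of the 20 checkpoint and exhaustion genes rose and 3 fell (median -0.20), a share of falls near the 15.5% among all genes tested. Pdcd1, which encodes PD-1, was at 1.19, 1.99, 1.8 and 1.57 in members and 1.5, 2.24, 1.94 and 1.26 in non-cycling cells (-0.09 ± 0.11, adjusted p = 0.554, and -0.13 without the Scrublet doublets), with overlapping classes. Havcr2, which encodes TIM-3, was at 1.53, 1.18, 1.42 and 1.06 against 2.08, 1.31, 1.46 and 1.07 (-0.18 ± 0.10, adjusted p = 0.182), and Tox, the factor that maintains the exhausted state, was at 2.08, 2.03, 1.81 and 1.6 against 2.72, 2.36, 1.85 and 1.55 (-0.16 ± 0.09, adjusted p = 0.194). Lag3 fell in members, at 0.922, 1.23, 0.916 and 1.39 against 1.53, 2.13, 1.12 and 1.65 (-0.54 ± 0.11, adjusted p = 0.00261), as did Nr4a3 (-0.73 ± 0.11, adjusted p = 0.000284) and Nr4a2 (-0.42 ± 0.08), orphan receptors induced by T cell receptor signals. Lag3 was lower in members in each tumor, although the classes overlapped. Of 9 costimulatory receptors 3 fell (Cd28, Cd27 and Tnfrsf1b) and none rose, of 12 cytokine receptors 3 fell (Il2rg, Ifngr1 and Ifnar1) and none rose, and of 13 genes of the T cell receptor and its proximal signaling 4 fell, among them Lck, Cd6 and Ptprc, and none rose. Of these calls, leaving out the Csf1rfl/fl tumor of run 2 lost Cd28 and Lck, leaving out the Lyve1CreCsf1rfl/fl tumor of run 1 lost Lck, Ifngr1 and Ifnar1, and leaving out that of run 2 lost Ifnar1.

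Genes of naive, memory and stem-like T cells were lower in members: 14 of 17 fell and none rose (median -0.93, 7 without the block). Tcf7, which encodes TCF-1 (chr11:52252371-52283014), was at 0.173, 0.492, 0.519 and 0.798 in members and 0.339, 0.835, 0.832 and 2.14 in non-cycling cells (-1.0 ± 0.13, adjusted p = 0.00011). The fall held in each tumor, although the levels spread widely between tumors and the classes overlapped, and the adjusted p was 0.16 without the block. S1pr1, the receptor for leaving tissue, was at 0.0512, 0.0905, 0.0721 and 0.216 against 0.0966, 0.402, 0.293 and 0.927 (-1.86 ± 0.20, adjusted p = 1.8e-05). Bcl2, which protects resting lymphocytes from apoptosis, was at 0.99, 0.952, 1.25 and 0.758 against 1.63, 2.06, 1.96 and 1.8 (-0.93 ± 0.11, adjusted p = 2.99e-05), with no overlap. The interleukin 7 receptor gene Il7r, at 0.632, 0.626, 0.671 and 0.676 against 0.938, 1.17, 1.52 and 1.79 (-1.0 ± 0.12, adjusted p = 6.68e-05), did not overlap either. Ly6c2, a surface protein of memory CD8 T cells, was at 6.93, 5.58, 3.79 and 5.54 against 9.95, 10.8, 9.04 and 14.1 (-1.01 ± 0.11, adjusted p = 1.67e-05). High Ly6c2 also marks the monocyte cluster of the paper, and the part of monocyte RNA in this fall was not tested. Lef1 and Ccr7 fell too, by log2 differences of -1.21 ± 0.31 and -1.50 ± 0.22. The call of Lef1 was lost without the Lyve1CreCsf1rfl/fl tumor of run 2. Thinned, Tcf7 was in 8.32% of members and 16.1% of non-cycling cells (16.5% and 21.9% before). Without the Scrublet doublets 13 of 16 fell, with a median of -1.19.

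The chemokine Ccl5, a mark of effector and memory CD8 T cells (chr11:83525778-83530518), was lower in members. Its level was 13.2, 6.73, 10 and 5.75 in members and 33.9, 21.4, 27.5 and 18.5 in non-cycling cells (-1.54 ± 0.07, adjusted p = 2.76e-09), without overlap, and the share of thinned cells with a UMI was 59.4% against 75.4%. Of 9 chemokine and receptor genes 8 fell and 1 rose, the exception being Xcl1, the ligand for cross-presenting dendritic cells, at 3.07, 3.47, 5.26 and 5.62 against 2.28, 2.22, 3.87 and 5.21 (0.39 ± 0.09, adjusted p = 0.00467). Cxcr3, the receptor for interferon-induced chemokines, was at 0.0732, 0.193, 0.0937 and 0.13 against 0.151, 0.302, 0.306 and 0.348 (-1.15 ± 0.19, adjusted p = 0.000617), and Cxcr6 at 1.52, 2.04, 2.35 and 1.79 against 2.61, 3.38, 3.37 and 1.94 (-0.55 ± 0.11, adjusted p = 0.00192). Cxcr3 and Cxcr6 were lower in members in each tumor, and both overlapped across tumors. Without the block 2 of these genes fell and Xcl1 did not pass (adjusted p = 0.42). Ccl3 and Ccl4 fell, by log2 differences of -0.44 ± 0.10 and -0.57 ± 0.11, and both are also made by neutrophils, at 43.6 and 69.4 UMIs per 10000 in the neutrophil gate. Without the Scrublet doublets 6 fell and Ccl3 was not among them.

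Of 10 killer cell lectin-like receptors and short-lived effector genes 4 passed, with Cx3cr1 (0.41 ± 0.11, adjusted p = 0.0115) higher and Zeb2, Klrd1 and Klra7 lower. Every one of these 4 calls was lost on leaving out at least 1 tumor, among them the Csf1rfl/fl tumor of run 2.

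Interferon-stimulated genes were broadly lower in members, as 27 of 29 fell and none rose (median -0.63), Oasl1 and Usp18 being the others. Isg15, a ubiquitin-like modifier whose promoter is printed above, was at 6.32, 3.89, 2.62 and 3.96 in members and 7.15, 8.35, 4.94 and 7.16 in non-cycling cells (-0.75 ± 0.12, adjusted p = 0.000368). Its level was lower in members in each tumor, by little in the Csf1rfl/fl tumor of run 1. Thinned, Isg15 was in 51.6%, 35.5%, 39.9% and 42.7% of members and 47.3%, 50%, 38.9% and 51.8% of non-cycling cells. That share was lower in members only in the tumors of run 2. Ifit1, which binds viral RNA, was at 0.959, 0.559, 0.548 and 0.717 against 1.21, 1.65, 1.23 and 1.82 (-1.06 ± 0.16, adjusted p = 0.00032), without overlap, and Ifi27l2a at 74.5, 35.5, 56.6 and 38.7 against 92.2, 58.3, 70 and 52.4 (-0.44 ± 0.06, adjusted p = 0.000205). Irf7, which amplifies the interferon signal, fell, by a log2 difference of -0.85 ± 0.14. Without the block 12 of 29 fell, and without the Scrublet doublets all 29 fell (median -0.78).

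Of the 12 immediate early and heat shock genes 10 fell and 1 rose (median -0.68). Junb was at 3.96, 3.96, 3.26 and 3.72 in members and 4.82, 6.83, 4.94 and 7.57 in non-cycling cells (-0.67 ± 0.10, adjusted p = 0.000259), without overlap, and Fos at 1.9, 0.744, 0.873 and 1.08 against 2.34, 1.97, 1.72 and 3.57 (-1.08 ± 0.17, adjusted p = 0.000547). Hsp90aa1, a chaperone, rose instead, at 6.27, 8.68, 7.39 and 8.64 against 4.26, 5.79, 4.99 and 6.53 (0.52 ± 0.07, adjusted p = 6.95e-05). Without the block 6 fell, and without the Scrublet doublets 9 fell (median -0.81). Among p53 target genes 2 of 9 fell, Cdkn1a and Trp53inp1.

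RNA of other leukocytes moved in the same direction as the memory, interferon and immediate early genes. Of the macrophage and monocyte markers 6 of 9 fell (median -0.87, 0 without the block, 7 of 8 without the Scrublet doublets), of the neutrophil markers 3 of 6 (median -0.79) and of the dendritic cell markers 8 of 8 (median -1.11), with Lyz2 at 9.29, 2.78, 2.92 and 3.14 against 9.4, 7.94, 6.58 and 10 (-1.08 ± 0.20, adjusted p = 0.0013) and Cd74 at 10, 5.92, 4.96 and 7.46 against 12.7, 13.8, 11.9 and 15.7 (-0.97 ± 0.12, adjusted p = 5.26e-05). Summed over the macrophage list the members held 5.61 to 17.7 UMIs per 10000 and the non-cycling cells 12.2 to 18.1, against 79.6 in a macrophage gate, and for the dendritic list 11.4 to 24.1 against 30.0 to 39.3. The neutrophil list summed to 0.513 to 4.0 in members and 1.63 to 3.43 in non-cycling cells, against 176 in the neutrophil gate. Per cell, members held 12.1 macrophage and 20.7 dendritic marker UMIs and non-cycling cells 8.85 and 17.8, so the lower level per 10000 UMIs stood beside a higher count per cell, at median depths of 9257 and 4391 UMIs. Several of the genes that fell are also high in the neutrophil gate: Isg15 at 27.8, Ifit1 at 7.89, Junb at 25.1 and Fos at 7.99 UMIs per 10000. The part of such RNA in the lower levels of these lists was not tested. Without the Scrublet doublets 4 of 5 neutrophil markers (median -1.25) and 7 of 7 dendritic markers (median -1.76) fell. None of the markers of B cells, CD4 and regulatory T cells, gamma delta T cells or stroma that could be tested passed in either direction, and of 5 natural killer markers Tyrobp fell.

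Among the 12 largest falls by the rule were Adgrg6 (-2.92 ± 0.46, adjusted p = 0.000441), an adhesion receptor, Pik3ip1 (-2.04 ± 0.33, adjusted p = 0.000538), an inhibitor of PI3 kinase in resting T cells, and Kdm5b (-1.73 ± 0.20, adjusted p = 3.6e-05), a histone H3 lysine demethylase. Pik3ip1 was at 0.0244, 0.0236, 0.0361 and 0.0448 in members and 0.0619, 0.0696, 0.0998 and 0.353 in non-cycling cells, highest in the Lyve1CreCsf1rfl/fl tumor of run 2 in both classes. Kdm5b was at 0.0464, 0.0826, 0.0505 and 0.0611 against 0.141, 0.294, 0.146 and 0.226, without overlap. Ccl22 and Fscn1, also among the 12, are on the dendritic cell list.

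The comparison with cycling regulatory T cells sets members against another dividing T cell of the same tumors at like depth. Few S phase and G2/M genes passed and many lineage genes did. Members held perforin, interferon gamma, granzymes and killer lectin-like receptors. Regulatory T cells held Cd4, Ctla4, Il2ra and costimulatory receptors of the TNF family. Of 8593 genes 1477 differed, or 17.2% (8.93% higher and 8.26% lower in members), with a median over all genes of 0.01. Without the block 740 passed, and the DESeq2 Wald test called 727.

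Of 45 S phase genes 2 were higher (Rpa2 and Dut) and 5 lower (Mcm2, Mcm3, Mcm5, Gins2 and Cdca7) in members, with a median of -0.10, and of 53 G2/M genes 3 were higher (Cks1b, Bub1 and Cenpa) and 2 lower (Cks2 and Aurka), with a median of 0.04. These shares were near or below those of all genes. Cdk1 was at 1.19, 1.34, 1.56 and 1.39 in regulatory T cells (0.07 ± 0.10, adjusted p = 0.723). Mcm5, a subunit of the replicative helicase, was at 0.859, 1.46, 1.24 and 1.51 in members and 1.11, 2.1, 1.32 and 2.02 in regulatory T cells (-0.30 ± 0.10, adjusted p = 0.0395), a call lost in 8 of 11 alternatives, among them leaving out the Csf1rfl/fl tumor of either run or the Lyve1CreCsf1rfl/fl tumor of run 2. Thinned regulatory T cells had medians of 14 S phase and 32 G2/M UMIs, against 13 and 31 in members.

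Some regulators of the cycle differed: of 25 cyclins, kinases and inhibitors 4 were higher and 4 lower in members. Ccnd2, which encodes cyclin D2, was at 2.73, 4.3, 3.41 and 4.67 in regulatory T cells (-1.18 ± 0.08, adjusted p = 1.92e-09), and the tumors did not overlap with those of members. Ccnd3, Cdk6, Cdkn2a and Cdkn2d were higher in members and Cdk2, Cdkn1a and E2f2 lower. Cdkn2a, which encodes the inhibitors p16 and p19ARF, was at 0.239, 0.189, 0.332 and 0.147 in members and 0.125, 0.0991, 0.204 and 0.0669 in regulatory T cells (0.94 ± 0.20, adjusted p = 0.00246), higher in members in each tumor. Of 13 chromatin and histone variant genes of dividing cells 2 were higher (Tuba1b and Tubb5) and 4 lower (H2afz, Dnmt1, Ptma and Lmnb1) in members. H2afz, a histone variant, differed by -0.41 ± 0.05 (adjusted p = 5.48e-06). In both of these lists the shares called were above those of all genes. Of 18 nucleotide metabolism genes 1 differed (Atic, lower).

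Of 14 effector genes 10 were higher in members and 1, Srgn, lower (median 2.95, 9 and 0 without the block). Ifng was at 0.181, 0.0686, 0.12 and 0.0956 in regulatory T cells (4.62 ± 0.14, adjusted p = 2.3e-14) and Prf1 at 0.136, 0.183, 0.324 and 0.258 (4.0 ± 0.13, adjusted p = 6.26e-14), each far below every tumor of members. Gzmb was present in both, at 2.93, 2.74, 3.42 and 3.3 in regulatory T cells (1.03 ± 0.10, adjusted p = 2.52e-07), again without overlap. Gzmk was at 0.298, 0.35, 0.555 and 0.204 in members and 0.0113, 0, 0.0211 and 0.00956 in regulatory T cells (5.09 ± 0.35, adjusted p = 2.33e-09). Of further granzymes, Gzmc did not pass (1.28 ± 0.48, adjusted p = 0.0762, higher in 3 of 4 tumors), Gzme had 245 UMIs in members and 0 in regulatory T cells (at least 36.3-fold higher), and Gzmd 274 against 1 (ratio 122, counting interval 21.7 to 4830). Gzmd, Gzme and Gzmf are close copies, so reads may be split between them.

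Most receptors of natural killer type were higher in members than in cycling regulatory T cells. Of 11 genes of that list 10 were higher in members and Klrg1 was lower (median 2.20, 7 and 1 without the block). Klrc1, which encodes the inhibitory receptor NKG2A (chr6:129666015-129678973), was at 2, 1.85, 2.3 and 2.03 in members and 0.0113, 0.0229, 0.0282 and 0.0382 in regulatory T cells (6.35 ± 0.19, adjusted p = 2.09e-14). Klrd1, its partner CD94, was at 7.52, 5.6, 8.46 and 5.07 against 0.747, 0.419, 0.43 and 0.421 (3.82 ± 0.12, adjusted p = 2.09e-14), and Klrk1, which encodes the activating receptor NKG2D, at 3.08, 2.6, 3.15 and 2.38 against 0.362, 0.191, 0.296 and 0.162 (3.57 ± 0.12, adjusted p = 1.01e-13). None of these 3 overlapped. They were not particular to dividing cells: non-cycling CD8 T cells held Klrc1 at 2.3, 1.93, 2.41 and 1.64 and Klrk1 at 3.36, 3.31, 3 and 2.21, and Klrc1 was in 45.5% of thinned members and 44.4% of thinned non-cycling cells. Klrg1, a receptor of short-lived effectors and of mature regulatory T cells, ran the other way, at 0.0366, 0.059, 0.0433 and 0.0611 against 0.634, 1.02, 0.88 and 0.516 (-3.82 ± 0.20, adjusted p = 3.14e-11). Transcripts of the T cell receptor gamma locus were also higher in members: Trgv2 was at 1.03, 2.01, 1.15 and 1.25 against 0, 0.0229, 0.0141 and 0 (7.0 ± 0.27, adjusted p = 3.46e-13), and Tcrg-C2 had 957 UMIs against 2 (ratio 213, counting interval 58.7 to 1760). Il17a, a cytokine made by a subset of gamma delta T cells and by other T cells, was at 0 in members, Trdc, the delta constant gene, was in 0.329% of thinned members against 74.4% with Trac, and non-cycling CD8 T cells held Trgv2 at 0.909, 1.71, 0.965 and 0.743.

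Checkpoint genes split by lineage, with 11 of 20 higher and 5 lower in members (median 0.72). Pdcd1 was at 0.509, 0.602, 0.549 and 0.43 in regulatory T cells (1.71 ± 0.11, adjusted p = 1.39e-09), Lag3 was higher in members by 1.41 ± 0.12, adjusted p = 4.24e-08 and Cd160, an inhibitory receptor of killer cells, by 4.28 ± 0.23, adjusted p = 5.74e-11. Eomes, the T-box factor of effector CD8 T cells, was at 0.246, 0.476, 0.353 and 0.31 against 0.0113, 0.0229, 0.0282 and 0.0574 (3.6 ± 0.29, adjusted p = 1.92e-08). Ctla4, through which regulatory T cells restrain costimulation, was at 0.466, 1.09, 0.62 and 0.578 in members and 3.57, 5.66, 2.82 and 4.34 in regulatory T cells (-2.55 ± 0.11, adjusted p = 2.82e-12), and Prdm1, Irf4 and Batf, factors of effector regulatory T cells, fell, by log2 differences of -1.39 ± 0.12, -1.03 ± 0.21 and -0.95 ± 0.13. Pdcd1, Eomes and Ctla4 each separated the classes in all 4 tumors.

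Of 9 costimulatory receptors 7 were lower in members and 2, Cd27 and Cd226, higher (median -0.51). Icos was at 0.407, 0.535, 0.397 and 0.456 against 2.38, 4.14, 2.8 and 4.51 (-2.84 ± 0.11, adjusted p = 6.81e-13) and Tnfrsf4, which encodes OX40, at 1.01, 0.952, 1.32 and 1.33 against 7.25, 7.01, 9.08 and 5.68 (-2.58 ± 0.11, adjusted p = 1.23e-12). Cd226, an activating receptor for nectin-like ligands, was at 0.868, 1.29, 1.33 and 1.3 against 0.102, 0.175, 0.141 and 0.115 (3.22 ± 0.15, adjusted p = 7.37e-12). Il2ra, the alpha chain of the high-affinity interleukin 2 receptor, was at 0.359, 0.767, 0.353 and 0.607 against 2.6, 4.39, 3.49 and 4.17 (-2.75 ± 0.11, adjusted p = 5.09e-13), whereas Il18rap, a chain of the interleukin 18 receptor, was higher in members (2.56 ± 0.14, adjusted p = 5.62e-11). Cd4 (-4.21 ± 0.22, adjusted p = 4.53e-11) and the other 6 tested markers of CD4 and regulatory T cells were all lower in members.

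Memory genes also split, 6 higher and 7 lower of 15 (median 0.24, but -0.70 without the Scrublet doublets). Bcl2 was at 0.181, 0.0915, 0.183 and 0.086 in regulatory T cells (2.96 ± 0.16, adjusted p = 6.9e-11) and Tcf7 at 0.125, 0.16, 0.155 and 0.153 (1.78 ± 0.21, adjusted p = 3.15e-06), whereas Il7r (-1.07 ± 0.12, adjusted p = 2.57e-06) and S1pr1 (-2.37 ± 0.20, adjusted p = 2.95e-08) were lower in members. Of 10 chemokine and receptor genes 5 were higher and 3 lower. Cxcr6 was at 0.0226, 0.175, 0.0986 and 0.21 in regulatory T cells (3.98 ± 0.20, adjusted p = 2.55e-11), Xcl1 was higher in members (3.65 ± 0.32, adjusted p = 5.77e-08) and so was Ccl5, at 7.98, 2.67, 2.05 and 1.86 in regulatory T cells (1.53 ± 0.15, adjusted p = 2.11e-07, adjusted p = 0.11 without the block). Ccl5 overlapped between the classes, since the Csf1rfl/fl tumor of run 1 held 7.98 in its regulatory T cells. Interferon-stimulated genes were lower in 13 of 29 and higher in 1 (median -0.28, 5 and 0 without the block), led by the GTPase gene Iigp1 at 0.217, 0.244, 0.202 and 0.297 against 1.57, 2.84, 1.68 and 2.22 (-3.02 ± 0.13, adjusted p = 1.52e-12). Of 16 glycolysis genes 2 were higher and 6 lower, among them Ldha (-0.22 ± 0.07, adjusted p = 0.0287), a call lost without either tumor of run 1.

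By the rule, the largest rises over regulatory T cells included Slc16a11 (384 UMIs against 0, at least 56.9-fold) and Slc17a6 (343 against 0, at least 50.8-fold), both solute carriers, and Adgrg1 (202 against 1, ratio 89.8, counting interval 15.9 to 3565), an adhesion receptor of cytotoxic cells. The largest falls included Areg (-3.84 ± 0.26, adjusted p = 1.84e-09), the tissue repair factor amphiregulin, Cd81 (-3.70 ± 0.19, adjusted p = 2.55e-11), a tetraspanin, Itgae (-3.60 ± 0.21, adjusted p = 1.53e-10), the integrin CD103, Lmna (-3.39 ± 0.15, adjusted p = 3.99e-12), a nuclear lamin, and Itgb8 (-3.32 ± 0.23, adjusted p = 2.47e-09), the integrin chain that activates TGF-beta. Itgae was at 0.0146, 0.063, 0.0721 and 0.0489 in members and 0.328, 0.64, 0.711 and 0.726 in regulatory T cells, without overlap. Among macrophage markers 3 of 8 (Lyz2, Cd68 and Ms4a7) were higher in members, and these calls were lost without 1 or more of the tumors of run 1.

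Lastly, the genotypes were compared within the members, which asks whether the Csf1r deletion went with another state of dividing CD8 T cells. With edgeR 0 of 9814 genes passed (0% called), with 280 genes (2.85%) at an unadjusted p under 0.05, and in 2443 genes (24.9%) the tumors of the genotypes did not overlap. The DESeq2 Wald test called 7 genes, edgeR with the Chromium run as a block called 9, and with the block and without the Scrublet doublets it called 11. In non-cycling CD8 T cells 0 of 9128 genes passed, with 220 at an unadjusted p under 0.05.

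No gene of any of the 26 lists passed without the block, but some did under alternatives, among them Ms4a7 with the block and Lyz2 and Dapl1 with the block and without the Scrublet doublets. Median differences of Lyve1CreCsf1rfl/fl from Csf1rfl/fl were -1.29 for macrophage markers, -1.21 for neutrophil markers, -0.71 for natural killer markers and -0.65 for dendritic markers, 0.86 for the 1 B cell marker tested and 0.68 for the 2 tumor and stromal markers, and were 0.34 for memory genes and -0.32 for interferon-stimulated genes. The macrophage list summed to 17.7, 6.57, 5.61 and 6.38 UMIs per 10000 and the neutrophil list to 4.0, 0.960, 1.98 and 0.513, so the Csf1rfl/fl tumor of run 1, with 41.1% Scrublet doublets among members, stood above the rest. Without that tumor the macrophage median was -0.21 and the interferon median 0.16, and without the Scrublet doublets they were -0.60 and 0.05. Isg15, at 6.32, 3.89, 2.62 and 3.96, was highest in that tumor too. Gzmb, at 6.67, 5.86, 4.57 and 7.38, and Pdcd1, at 1.19, 1.99, 1.8 and 1.57, overlapped between the genotypes. Prf1, at 3.13, 3.45, 3.51 and 3.96, did not, with both Lyve1CreCsf1rfl/fl tumors slightly above both Csf1rfl/fl tumors, but it did not pass, and in non-cycling cells the order was the reverse (4.24, 4.05, 3.59 and 2.81).

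Some genes were chosen for description after their values were seen. The reasons were passing with the block, with DESeq2, under another alternative or in the test of the difference between classes. Xcl1 passed in none of these and is shown only because it shares the direction of Ccl1. Ccl1, the ligand of CCR8 (chr11:82176657-82305690), was higher in both Lyve1CreCsf1rfl/fl tumors, at 0.5, 0.342, 1.65 and 3.72 in members, and at 0.612, 0.82, 2.24 and 2.37 in non-cycling cells. The difference in members was 2.62 ± 0.38, adjusted p = 0.433, and 2.56 with adjusted p = 0.0234 with the block, over a range of 2.03 to 3.05 and of adjusted p 1.93e-17 to 1 among 13 alternatives. In non-cycling cells it was 1.71 ± 0.25. Xcl1, which shares Ccl1's direction but passed in none of 13 alternatives (0.74 ± 0.23, adjusted p = 1), was at 3.07, 3.47, 5.26 and 5.62, with both Lyve1CreCsf1rfl/fl tumors above both Csf1rfl/fl tumors. Tcf7 was at 0.173, 0.492, 0.519 and 0.798 (1.05 ± 0.40, adjusted p = 1, with a range of 0.0202 to 1), with no overlap of the genotypes either. In non-cycling cells it was at 0.339, 0.835, 0.832 and 2.14, higher in Lyve1CreCsf1rfl/fl within each run but overlapping across runs.

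Hmox1, which encodes heme oxygenase 1 (chr8:75093621-75100589), was lower in both Lyve1CreCsf1rfl/fl tumors, at 1, 0.665, 0.0865 and 0.102 (-3.16 ± 0.35, adjusted p = 0.104, and -3.05 with adjusted p = 0.0031 with the block, over a range of adjusted p of 3.93e-18 to 1). Ms4a7, Marcks and C3ar1, which myeloid cells express, were lower too, Ms4a7 at 0.72, 0.264, 0.0721 and 0.0815 (-2.73 ± 0.55, adjusted p = 0.834, with a range of 9.2e-12 to 1 over 13 alternatives) and Marcks at 1.73, 1, 0.505 and 0.399 (-1.64 ± 0.35, adjusted p = 0.983, with a range of 4.61e-07 to 1). In the macrophage gate these genes stood at 5.26 (Hmox1), 10.6 (Ms4a7), 9.11 (Marcks) and 4.71 (C3ar1) UMIs per 10000, above every tumor of the members. Whether macrophage RNA has a part in these differences was not tested. Without the Scrublet doublets the difference was -2.48 for Hmox1 and -1.29 for Ms4a7, and that of Lyz2 moved from -1.04 to 0.22 without the Csf1rfl/fl tumor of run 1.

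**Figure D4:**
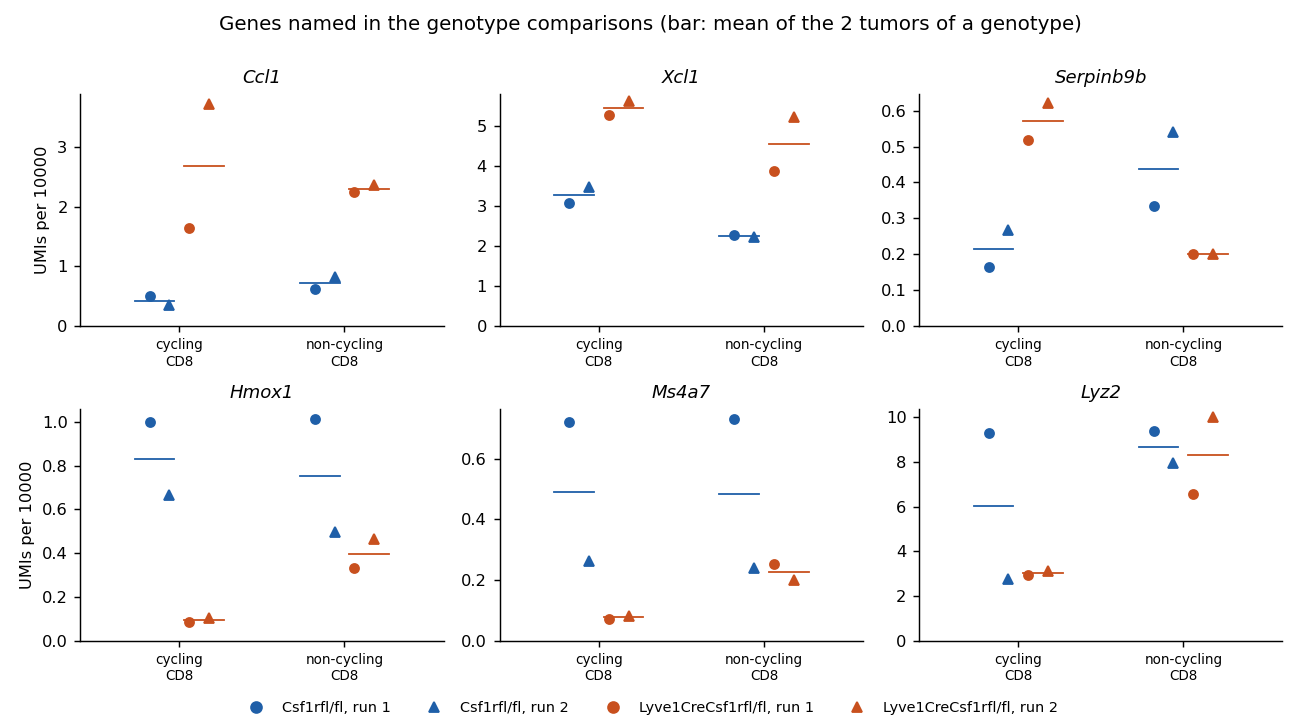
UMIs per 10000 of 6 genes in cycling and non-cycling CD8 T cells by genotype, with 1 point per tumor, the run given by its symbol and a bar at the mean of the 2 tumors. Ccl1 and Xcl1 are higher in both Lyve1CreCsf1rfl/fl tumors in both classes, Serpinb9b is higher in them in cycling cells and lower in non-cycling cells, Hmox1 is lower in them, and Lyz2 is set apart in cycling cells by the Csf1rfl/fl tumor of run 1.

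The difference of the genotype effect between cycling and non-cycling CD8 T cells was tested directly and passed for 5 of 10233 genes, or 0.0489% (0.00977% with a higher and 0.0391% with a lower effect in members). Serpinb9b, a serpin of the family that inhibits granzyme B (chr13:33027416-33041884), was at 0.163, 0.268, 0.519 and 0.623 in members and 0.334, 0.541, 0.2 and 0.2 in non-cycling cells. It was thus higher in both Lyve1CreCsf1rfl/fl tumors among dividing cells and lower in both among non-cycling cells (2.52 ± 0.28, adjusted p = 0.00614). Serpinb9b has close copies in a gene cluster, so its counts may be split. The other 4, Hmox1 (-2.27), Cstdc4 (-2.75), Arg1 (-5.39) and Fscn1 (-2.06), had a lower genotype effect in members. The fitted value of Arg1 is no bound because 1 Lyve1CreCsf1rfl/fl tumor was at 0. Hmox1 and Cstdc4 are higher in the myeloid gates than in either class, and Fscn1 is on the dendritic cell list. Whether RNA of other leukocytes has a part in these 4 differences was not tested. All 5 calls were lost without the tumor block and without the Lyve1CreCsf1rfl/fl tumor of run 1, and those of Hmox1, Cstdc4 and Arg1 also without the Scrublet doublets.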

How the data were processed

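Single cell RNA and hashtag libraries (10x Chromium) of viable CD45+ cells from 4 EO771 tumors, pooled as 1 tumor of each genotype in each of 2 runs, were analysed. The authors aligned reads with Cell Ranger 6.0.1 to mm10 and deposited raw UMI counts per gene and cell, a hashtag table of another kind (2 antibody counts per cell), and SCTransform-corrected values, a score, for the cells left after removing doublets, cells with high mitochondrial RNA and 4 clusters that came almost only from the Lyve1CreCsf1rfl/fl tumor of run 2. From the score table only cell names were used. No column of per-sample values was set aside. Members and gene lists were chosen with earlier results of these data known.

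UMIs were summed per tumor and class. Sums were tested with edgeR 4.0.16 (quasi-likelihood, filterByExpr, TMM, Benjamini-Hochberg, threshold 0.05), with the tumor as a block between classes and no block between genotypes, and with DESeq2 1.42.0 as an alternative. Fits were tested on simulated data. The run number in the labels marks a shared Chromium run and so pairs the tumors: deviations of same-run tumors from their genotype means correlated at 0.199 over 9814 genes. Shares were compared by exact permutation. Summed depths per tumor were 4099207, 2541222, 1386717 and 2455011 UMIs in members. Intervals cover counting error only, at 95% confidence. Separate mice per tumor are 2 per genotype, so p-values rest on the spread among 4 tumors. Named genes were those of the gate, up to 12 largest rises and 12 largest falls per comparison that passed and moved the same way in every tumor, and list members of high level or past the threshold. Alternatives were DESeq2's test and size factors, no filter on low counts, the block, single tumors left out, a stricter gate of 2 UMIs, a hashtag ratio of 3, thinning, and no Scrublet doublets (run with an expected rate of 0.2). Analyses used Python 3.11.15, scanpy 1.11.5 and R 4.3.3. Some genes are not reported here.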

Additional observations from a re-analysis of the deposited data

Results flagged for a closer look

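The share of members among kept cells moved in opposite directions in the 2 runs, with a log2 ratio of Lyve1CreCsf1rfl/fl to Csf1rfl/fl of -0.87 in run 1 and 0.66 in run 2. The difference between the runs was not tested, as each run holds 1 tumor per genotype.

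The genotype effect differed between cycling and non-cycling CD8 T cells for 5 genes by a test of that difference (edgeR's quasi-likelihood test, tumor as a block). It was larger in cycling cells by 2.52 (log2) for Serpinb9b, and lower by a difference of -2.27 for Hmox1, -2.75 for Cstdc4, -5.39 for Arg1 and -2.06 for Fscn1. Arg1 had no UMI in members of the Lyve1CreCsf1rfl/fl tumor of run 1, so its fitted value is no bound. Hmox1 and Cstdc4 are higher in the myeloid gates than in either class, and Fscn1 is on the dendritic cell list. Whether RNA of other leukocytes has a part was not tested. Each of the 5 calls was lost in 4 to 6 of 11 alternatives.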

How the results depend on the processing

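Depth limits low genes most: the floor of 3 counts corresponds to 0.00286 UMIs per 10000 in members and 0.00644 in cycling regulatory T cells. Against non-cycling cells, 3180 genes became 1733 with the DESeq2 Wald test, 1609 without the replicate block (1107 higher and 502 lower) and 2035 to 3306 on leaving out single tumors, the lowest without the Csf1rfl/fl tumor of run 2. Against regulatory T cells, 1477 became 727, 740 and 1139 to 1343. Between genotypes, 0 became 7 (DESeq2 Wald), 211 (no filter on low counts), 9 (replicate block of the Chromium run), 11 (block, without Scrublet doublets, chosen after seeing the data), 1 (stricter gate) and 0 to 53 on leaving out single tumors, 38 and 53 without the Lyve1CreCsf1rfl/fl tumor of run 1 or run 2. Leaving out a tumor leaves 1 tumor in that genotype, which is then assumed to vary like the 2 of the other. For the difference of genotype effects, 5 became 0 (DESeq2 Wald, no replicate block, or stricter gate), 102 (no filter on low counts) and 0 to 255, the highest without the Csf1rfl/fl tumor of run 2. The difference between the genotypes in the mean log2 share of kept cells, -0.105, was 0.0737 when thinned and -0.63 to 0.42 without single tumors, and that among CD8 T cells, -0.134, was 0.14 and -0.41 to 0.14. Against non-cycling cells, Ifng turned from -0.01 to 0.0040 (DESeq2), 0.012 (no filter), 0.022 (stricter gate), 0.084 (without the Csf1rfl/fl tumor of run 1) and 0.012 (without the Lyve1CreCsf1rfl/fl tumor of run 2). Leaving out single tumors, Ifng spanned -0.140 to 0.084, Prf1 -0.257 to 0.0829 (-0.06 with all tumors), Pdcd1 -0.226 to 0.011 (-0.09) and, between genotypes, Lyz2 -1.70 to 0.22 (-1.04), each turning without the Csf1rfl/fl tumor of run 1. Of named-gene values against non-cycling cells under settings that kept all tumors, 635 kept direction and side of the threshold and 69 lost the call, and against regulatory T cells 688 and 39. The causes were not tested.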
